A study of Homo sapiens with 6 samples.

Results

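Iron enters cells, is stored or leaves them through a small group of proteins, and haem oxygenase returns iron from haem to the same pool. The 10 genes described here are the haem oxygenases HMOX1 and HMOX2, the ferritin chains FTH1 and FTL, the importers TFRC and SLC11A2, the exporter SLC40A1, the iron regulatory proteins ACO1 and IREB2, and NCOA4, the receptor that brings ferritin to autophagy. They were chosen by symbol from the 28395 genes of the deposited table, 1 row each, and all 10 had reads. A375, an established human melanoma line labelled wild type, received either olive oil (OLO) as the control or its ozonated form (OZO), each at 0.01% for 6 h, and 3 RNA-seq libraries were made per group. The value used for each gene is the authors' mean log2 CPM (counts per 1000000 counted reads) over all 6 libraries. It pools OLO and OZO, so no difference between the oils is reported and no spread between libraries is given with any value. In this bulk measurement fewer cells with a transcript and less RNA per cell cannot be told apart.

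Ferroptosis is a form of cell death that depends on iron and on oxidised lipids. Haem oxygenase opens the haem ring and frees its iron. Ferritin, a shell built of heavy and light chains, holds iron in a form that does little harm, and NCOA4 delivers that shell to lysosomes so that the iron can be used again. The iron regulatory proteins bind a hairpin in certain mRNAs, the iron-responsive element, when iron is scarce. Bound before the coding sequence the hairpin blocks translation, and bound after it the hairpin protects the mRNA from decay.

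The hairpin is the sequence that links the regulators in this group with their targets, so its letters were searched for in the canonical transcripts of GENCODE 44. The search asked for a C, 5 bases, a loop of 6 bases reading CAGTGN or CAGAGN with the last base not G, and 5 bases able to pair with the first 5, G with T included, on the transcript strand alone. Of the 10 genes, 4 held the letters, in 8 sites, against 389 of 20046 protein-coding transcripts (1.94%). The pattern describes a hairpin already known to link these regulators with their targets. The shares given here and below are therefore a description, and enrichment was not tested. Each site is shown 5′ to 3′ as DNA letters with 5 flanking bases on each side, 27 bases in all, and the capitals mark the loop.

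FTH1: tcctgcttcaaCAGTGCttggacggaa
FTL: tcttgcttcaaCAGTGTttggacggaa
SLC40A1: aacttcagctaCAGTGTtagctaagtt
TFRC site 1: tttatcagtgaCAGAGTtcactataaa
TFRC site 2: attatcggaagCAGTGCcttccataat
TFRC site 3: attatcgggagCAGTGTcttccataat
TFRC site 4: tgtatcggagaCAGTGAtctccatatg
TFRC site 5: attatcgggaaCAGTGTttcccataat

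In hg38 the FTH1 site lay at chr11:61967575-61967601 on the minus strand and the FTL site at chr19:48965336-48965362 on the plus strand. The SLC40A1 site lay at chr2:189580662-189580688 on the minus strand. The 5 sites of TFRC lay on the minus strand at chr3:196051030-196051056, chr3:196050980-196051006, chr3:196050576-196050602, chr3:196050511-196050537 and chr3:196050464-196050490. The sites of FTH1, FTL and SLC40A1 stood before the coding sequence, a place where 24 of all transcripts searched (0.12%) held the letters. Those of TFRC stood after it, between bases 3240 and 3832 of a transcript of 5012 bases. The site of FTH1 began at base 34 of 1203, that of FTL at base 28 of 871 and that of SLC40A1 at base 99 of 3330. The other 6 genes, SLC11A2 among them, did not hold these letters in their canonical transcript, which says nothing of looser forms of the hairpin or of other transcripts.

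**Figure D1:**
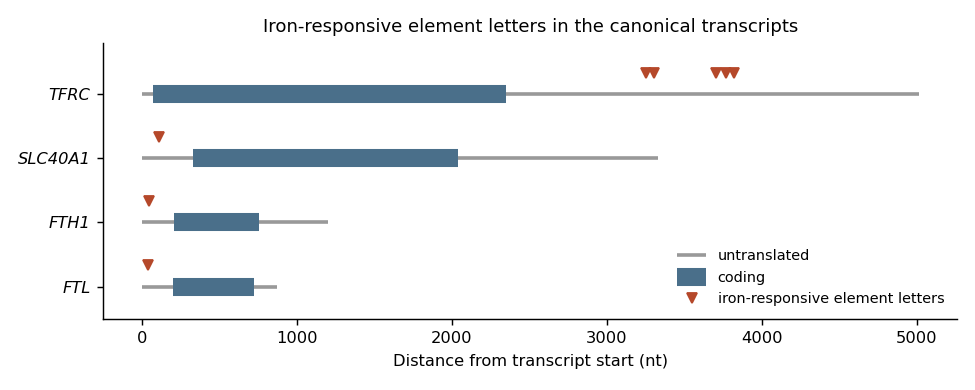
Canonical transcripts of the 4 genes that held the letters, drawn to scale along distance from the transcript start (nt). Thick bars are coding sequence, thin lines untranslated, and triangles mark the sites. The single site of FTH1, FTL and SLC40A1 precedes the coding bar, and the 5 sites of TFRC follow it.

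The low values of the table gave the depth, since 7012 genes share the lowest mean, −5.20 log2 CPM, where no library had a read. That value puts the libraries, as scaled by the authors, at a geometric mean of 18409902 counted reads, and it turns every mean into a geometric mean number of reads per library. Among the genes 21383 had a read and 13773 had a mean of at least 10 reads. The label was checked against markers. At least 10 reads per library were found for 6 of 9 markers of melanoma and melanocytes, with SOX10 highest at 919, while PMEL had 5.75, DCT 4.74 and TYR none. The 4 markers of dedifferentiated melanoma had between 85.0 and 4915 reads. By the same minimum 2 of 4 keratinocyte markers were present, KRT10 at 469 and KRT14 at 77.5 reads, while KRT5 had 1.56 and KRT1 none. Of 4 macrophage markers 2 reached it, CD14 at 14.7 and CSF1R at 14.2 reads, close to the melanocyte gene TYRP1 at 11.02. The 5 erythroid markers had at most 0.804 reads and the 2 hepatocyte markers at most 0.366.

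The 10 genes spanned a 4692-fold range of mean CPM. Their median was 2588 reads per library, whereas genes with a read had a median of 71.1. By mean log2 CPM, 5 of the 10 were above at least 90% of all genes, and 9 had at least 10 reads. Per kb, the ferritin chains and the transferrin receptor were at the top, NCOA4, the regulators, HMOX1 and SLC11A2 lay in between, and HMOX2 and the exporter were at the bottom. The level of HMOX2 carries a mapping limit described below.

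**Figure D2:**
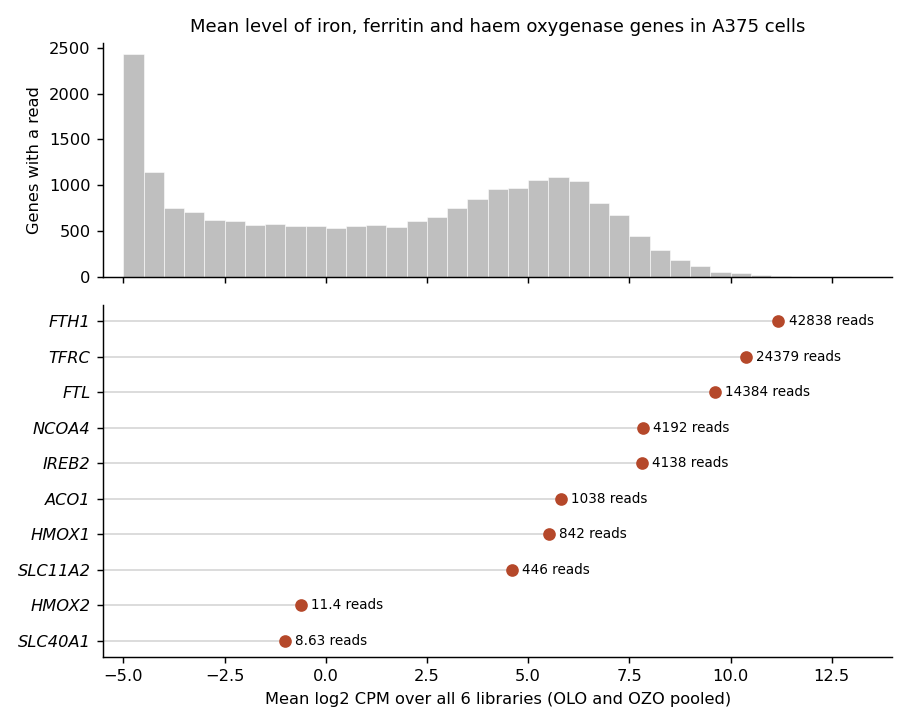
Upper panel, number of genes with a read by mean log2 CPM over all 6 libraries. Lower panel, the same axis for the 10 genes, each point being the authors' mean, with the geometric mean reads per library beside it, from 42838 for FTH1 to 8.63 for SLC40A1.

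Per kb of canonical transcript the ferritin genes were the highest of the 10, whereas in reads per library TFRC lay between them. FTH1 (ENSG00000167996, chr11:61964285-61967634), the heavy chain with the ferroxidase activity that oxidises iron on entry, had a mean of 11.18 log2 CPM or 42838 reads per library, and 14 genes of the table were higher. FTL (ENSG00000087086, chr19:48965309-48966879), the light chain that helps iron to mineralise inside the shell, had 9.61 log2 CPM or 14384 reads. Per kb of canonical transcript, FTH1 stood at 1934 and FTL at 897 mean CPM per kb, a ratio of 2.16 that fell to 1.29 with the union of exons as length.

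This ratio carries a mapping limit. Windows of 31 bases were compared with the chromosomes of hg38, and 60.9% of those of FTH1 and 47.9% of those of FTL occurred at more than 1 place, as is known of genes with processed pseudogenes. The table held a single row of each pseudogene family. FTH1P3 had 13.3 reads per library and FTLP10 had none, which does not show how many ferritin reads were lost or shared at other copies. In GENCODE 44, exons of BEST1 on the opposite strand covered 63.2% of the exonic bases of FTH1, and BEST1 itself had 5.51 reads per library. The libraries were strand-specific, and whether the counting used strand is not given in the sources used here. The annotation used for counting is not given either and may differ from GENCODE 44.

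Among the importers, TFRC was high and SLC11A2 moderate. TFRC (ENSG00000072274, chr3:196049284-196082090), the receptor that takes up transferrin with its iron, had 10.37 log2 CPM or 24379 reads per library and ranked 49 among all genes. It had 264 mean CPM per kb of canonical transcript. SLC11A2 (ENSG00000110911, chr12:50952263-51028886), the transporter that moves ferrous iron across the endosomal and plasma membrane, had 4.60 log2 CPM or 446 reads per library and 5.87 mean CPM per kb. TFRC was thus 45.0-fold above SLC11A2 per kb, and between 31.1-fold and 40.3-fold above it with the other definitions of length. No window of either gene recurred on the chromosomes.

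SLC40A1 (ENSG00000138449, chr2:189560590-189580786), ferroportin, the exporter of iron, was the lowest of the 10 per kb. It had −1.01 log2 CPM, 8.63 reads per library and 0.149 mean CPM per kb. In reads per library SLC40A1 lay close to HMOX2, which had 11.4, and the 2 were not ordered on that scale. The 6 other protein-coding genes within 200 kb all had at least 10 reads, with a median of 1094 reads. Per kb, TFRC was 1774-fold above SLC40A1, and the ratio lay between 648 and 2006 over the definitions of length.

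So few reads allow the counts themselves to be narrowed down. A count with the 0.5 that voom adds becomes an odd whole number when doubled, so the mean log2 CPM, taken relative to the lowest value, gives the product of 6 odd whole numbers. Leaving out the genes with no read, whose product is 1 by construction, all 5057 genes with a product under 10000 fell within 0.01 of an odd whole number. The product of SLC40A1 was 37058175, whose largest prime factor of 31 means that at least 1 library had 15 reads or more. The 6 counts of SLC40A1 sum to at least 55 reads and cannot all exceed 5. Which library holds which count is not contained in the product, and 3887 sets of counts give it.

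NCOA4 (ENSG00000266412, chr10:46005088-46030623) had 7.83 log2 CPM, 4192 reads per library and 65.8 mean CPM per kb. It came next after ferritin and TFRC in the order per kb. Of its windows 21.6% occurred at more than 1 place on the chromosomes, so some of its reads could be shared with near copies.

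The iron regulatory proteins differed in level. IREB2 (ENSG00000136381, chr15:78437431-78501453), also known as IRP2, which is degraded when iron is plentiful, had 7.81 log2 CPM and 4138 reads per library. ACO1 (ENSG00000122729, chr9:32384643-32454769), also known as IRP1, which acts as a cytosolic aconitase while it holds an iron-sulfur cluster, had 5.82 log2 CPM and 1038 reads per library. Per kb of canonical transcript, IREB2 stood at 35.5 and ACO1 at 7.58 mean CPM per kb, a ratio of 4.69 that lay between 2.79 and 4.69 over the definitions of length. At most 4.16% of the windows of either gene recurred.

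HMOX1 (ENSG00000100292, chr22:35381096-35394207), the inducible haem oxygenase, had 5.52 log2 CPM, 842 reads per library and 29.5 mean CPM per kb. Of all genes 83.2% were lower in mean log2 CPM. No window of HMOX1 recurred on the chromosomes or on alternate contigs, and no other gene overlapped its exons. The mean pools cells given either oil.

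HMOX2 (ENSG00000103415, chr16:4474736-4510347), the haem oxygenase known as constitutive, had −0.62 log2 CPM, 11.4 reads per library and 0.388 mean CPM per kb. Read in the same way, its product of 185969511 allows 1645 sets of counts, and in each of them at least 1 library had 19 reads or more and the sum was at least 73. Per kb, HMOX1 was 76.0-fold above HMOX2, and 103-fold with the union of exons. Exons of NMRAL1 on the opposite strand covered 3.05% of its exonic bases.

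Of the windows of HMOX2, 92.0% also occurred on an alternate contig, a second version of a region that the hg38 copy used here carries beside the chromosomes. Among the other 9 genes this share was at most 2.19%. Protein-coding genes with such a share above 90% had a median of 0 reads per library, and 230 of those 374 genes (61.5%) had no read in any library. Genes with no window on an alternate contig had a median of 82.1 reads, and 1630 of those 12586 genes (13.0%) had no read. The change was not steady. With a share above 0 and up to 50% the median was higher, 281 reads, and 7.76% had no read. With a share above 50% and up to 90% the median was 0.100 reads, and 43.0% had no read. Whether the authors aligned to a copy with alternate contigs, and whether reads with several matches were left out, is not given in the sources used here, and the part of this in the level of HMOX2 was not tested.

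The neighbours of HMOX2 were looked at next. With their nearest edge within 200 kb, 8 of its 13 protein-coding neighbours had over 50% of their windows on an alternate contig, and no other gene of the 10 had such a neighbour. These 8 neighbours had between 0 and 58.8 reads per library with a median of 3.15. Adjoining HMOX2, NMRAL1 had 9.38 reads and CDIP1 15.0 reads, with 87.4% and 93.3% of their windows on alternate contigs. The 5 remaining neighbours had a median of 139 reads, from 0 for C16orf96 to 746 for MGRN1, so the ranges overlapped. These neighbours were taken by position after the value of HMOX2 was seen, and all 13 together had a median of 9.38 reads. For the other genes of the 10, the median of the neighbours ran from 3.93 reads for FTL, with 26 neighbours, to 1094 for SLC40A1. None of the neighbours of FTL had over 50% of their windows on an alternate contig. What lies behind the medians at either place was not tested.

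**Figure D3:**
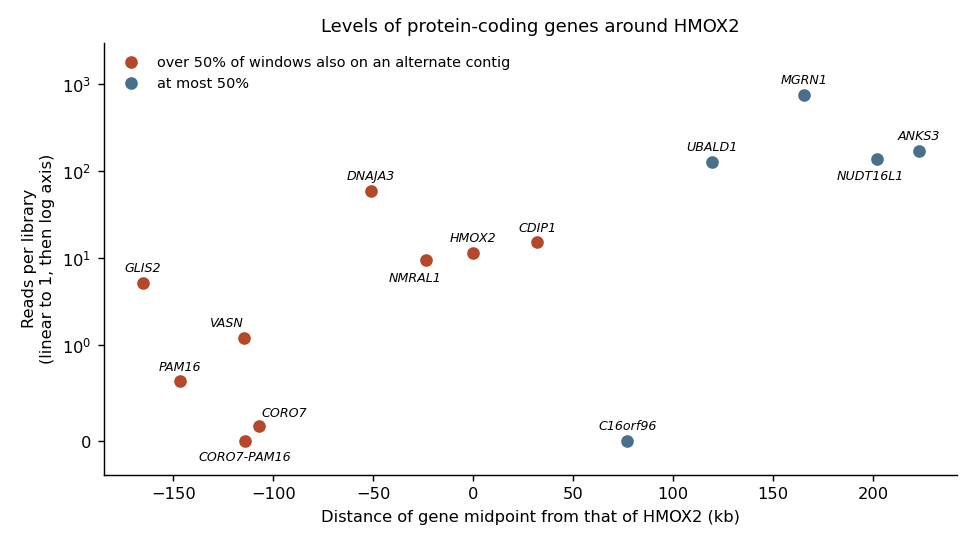
Geometric mean reads per library (linear to 1, then a log axis) of the protein-coding genes within 200 kb of HMOX2, against the distance of each gene's midpoint from that of HMOX2 in kb. Red points, with over 50% of their windows also on an alternate contig, lie between 0 and 58.8 reads; blue points lie between 0 and 746.

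Put in order by mean CPM per kb of canonical transcript, the genes ran FTH1, FTL, TFRC, NCOA4, IREB2, HMOX1, ACO1, SLC11A2, HMOX2 and SLC40A1, over a 12989-fold range. A difference under 1.5-fold between neighbours in this order was not read as an order, because the spread between libraries is not in a mean. Each mean also pools OLO and OZO, so the places and ratios of a gene that differs between the oils may hold in neither group, which was not tested. This left IREB2 and HMOX1, 1.21-fold apart, and ACO1 and SLC11A2, 1.29-fold apart, unordered. The widest step, 15.1-fold, separated SLC11A2 from HMOX2. The place of HMOX2 and this step carry the limit given above, since 92.0% of its windows also occurred on an alternate contig. The order was the same with the longest transcript, with the union of exons and with the coding length, but with the union of exons FTH1 and FTL were 1.29-fold apart and TFRC (76.2 mean CPM per kb) was close to NCOA4 (57.1). Without length, 6 of the 10 kept their place.

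**Figure D4:**
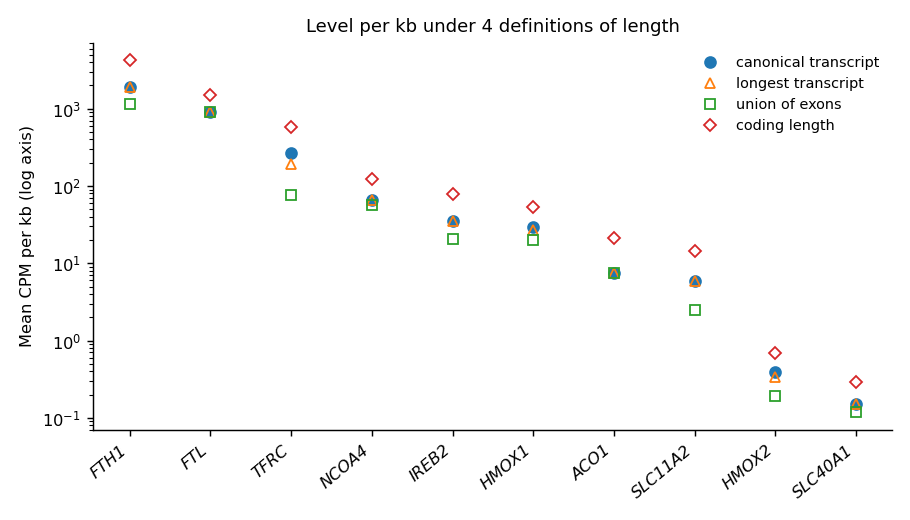
Mean CPM per kb (log axis) of the 10 genes under 4 definitions of length, in the order given by the canonical transcript (filled circles). The symbols shift by definition, and the order from FTH1 at 1934 to SLC40A1 at 0.149 is the same under each.

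The wider network was described with 53 further genes of iron and haem handling, grouped by role and given in reads per library, not divided by length. All 53 were in the table, 49 had a read and 38 had at least 10 reads, with a median of 276 reads per library. Of all 28395 genes 21383 had a read and 13773 had at least 10 reads. Haem synthesis was well covered. Of its 9 genes 8 had at least 10 reads, with CPOX, coproporphyrinogen oxidase, highest at 2249 and ALAS2, the erythroid form of the first enzyme, lowest at 0.804. Among the 10 genes of mitochondrial iron import and iron-sulfur clusters 9 had at least 10 reads, from SLC25A37, mitoferrin 1, at 1182 down to CISD3, a carrier of an iron-sulfur cluster, at 2.32. CISD3 had most of its windows (96.7%) on an alternate contig, and the part of this in its level was not tested.

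In haem transport and breakdown, all 8 genes had at least 10 reads, from FLVCR1, a transporter first described as a haem exporter, at 1585 to FLVCR2 at 13.3. Uptake outside TFRC and SLC11A2 was led by SLC39A14, a zinc and iron importer, at 3259 reads. Of the 13 uptake genes 8 had at least 10 reads, CD163, the scavenger receptor for haemoglobin and haptoglobin, was lowest at 0.540 and TFR2, the second transferrin receptor, had none. The iron chaperones PCBP2 and PCBP1 had 10284 and 5380 reads, while FTMT, the mitochondrial ferritin, and FTHL17, a ferritin-like gene, had none. Of the genes for iron sensing and ferritin turnover, HERC2, a ubiquitin ligase, had 979 reads, with 74.3% of its windows on alternate contigs, and TFEB, a regulator of lysosomal genes, had 4.30.

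The genes for export and its control in the wider list were few in reads. Of these 6 genes 1 had at least 10 reads, against 13773 of all 28395 genes. It was BMP6, a ligand that induces hepcidin in the liver, at 23.5. HAMP, which encodes hepcidin, had 0.355 and HJV, which encodes hemojuvelin, a co-receptor for BMP ligands, had no read. The median of this role, which joins export genes with genes that control export, was 2.37 reads per library. It was 644 for haem synthesis and 650 for mitochondria and iron-sulfur clusters.

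**Figure D5:**
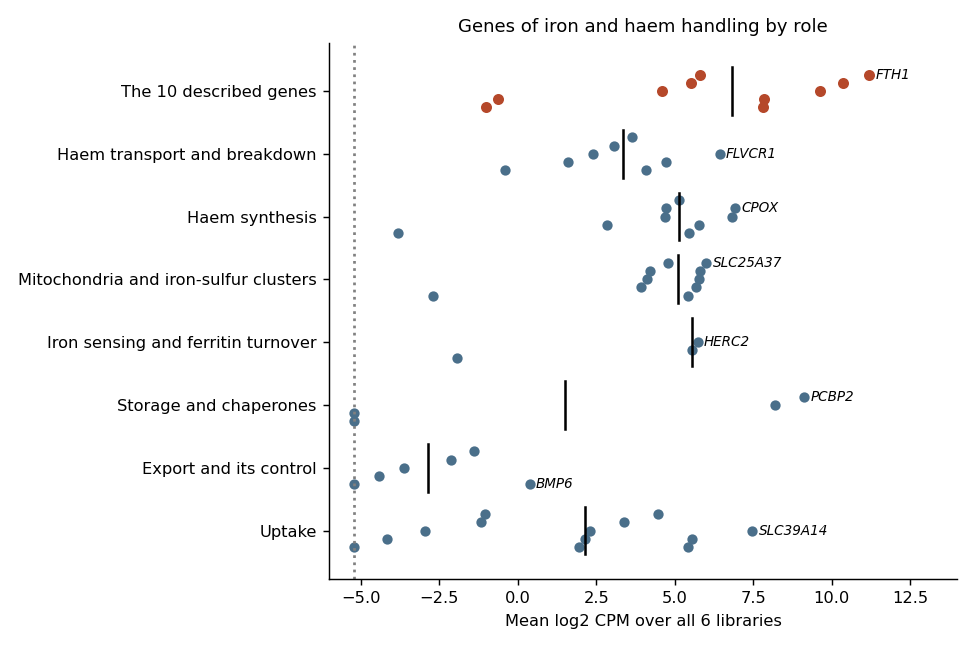
Mean log2 CPM over all 6 libraries for the 53 further genes by role (blue) and the 10 described genes (red), 1 point per gene with its role's highest gene named. Black bars are medians, and the vertical offset within a role only separates points. The dotted line at −5.20 is the value of a gene with no read. Genes for export and its control have the lowest median, with BMP6 highest at 23.5 reads per library.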

How the data were processed

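RNA of A375 cells treated with OLO or OZO was sequenced in 6 libraries made with a strand-specific kit. The authors aligned reads to hg38 with HISAT2 2.1.0, counted them per gene with featureCounts 2.1.1 and tested OZO against OLO with voom in limma 3.58.1. The deposited log2 value used here is a gene's mean log2 CPM over the 6 libraries, and voom raises each count by 0.5 beforehand. The other deposited columns hold the authors' own comparison (fold change, moderated t, p-value, adjusted p-value and log-odds) and were not used, so the planned comparison of OZO with OLO was not run. Library by library values were not analysed here, the spread between libraries and the depth of each are unknown, and no test was made.

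Reads per library were derived from the lowest value. Lengths, exon overlaps and transcripts came from GENCODE 44 and gene positions from RefSeq for GRCh38.p14, the assembly hg38 denotes, counted from 1. The authors' annotation for counting is not given, so the lengths used per kb may differ from those of the counted exons. Transcripts were cut into windows of 31 bases and looked up on both strands of hg38 and its 261 alternate contigs. Python 3.11.15, pandas 2.3.3, numpy 2.4.6 and sympy were used. Named genes are all 10 chosen genes, and in each role of the wider list the highest, the lowest with a read and those with no read. The genes and lists were chosen with earlier results of these data known.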

Additional observations from a re-analysis of the deposited data

How the results depend on the processing

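No paired analysis was possible because the deposited mean pools all libraries. For the same reason edgeR and DESeq2 were not run, nor a fit without a filter or without each replicate. The window, overlap and neighbour comparisons were added after seeing the data. Of the 10 genes, those with at least 10 reads, 9, became 10 with any read and 8 at 1 CPM. Ratios moved with the definition of length. FTH1 over FTL per kb, 2.16, was 1.29 with the union of exons, 2.85 with the coding length and 2.98 without length. IREB2 over ACO1, 4.69, was 2.79, 3.68 and 3.99 in the same order. TFRC over SLC11A2, 45.0, was 32.8 with the longest transcript, 31.1 with the union of exons, 40.3 with the coding length and 54.6 without length. HMOX1 over HMOX2, 76.0, was 103 with the union of exons. This ratio carries the mapping limit of HMOX2 given above, which none of these settings addresses. Without length, 6 genes kept their place in the order. Taking off the added 0.5 left the order as it was and gave 79.2 for HMOX1 over HMOX2.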
